A study of Mus musculus with 9 samples.

Results

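Hemoglobin, the oxygen carrier of red cells, is a tetramer of alpha- and beta-like globin chains, each of which holds a heme. The genes examined were Hba-a1 and Hba-a2, which encode adult alpha globin, Hbb-b2 and Hbb-bt, which encode adult beta globin chains, and Alas2, which encodes the erythroid form of 5-aminolevulinate synthase, the first enzyme of heme synthesis. They were chosen by gene name, because the globins had stood out when livers given AAV-GP73 were compared with livers given AAV-V. Non-control probes of these 5 genes, out of 37074 gene names, were taken: 6 probes out of 56605, printed on 33 of 59305 spots. The values of AAV-GP73 against AAV-V therefore chose the genes and are given below as a description, without a test.

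Adult liver does not make red cells in health, and globin mRNA in it is known to come largely with blood, since reticulocytes, the youngest circulating red cells, still carry globin mRNA after losing the nucleus. Erythroid genes can also be expressed in liver when red cells are formed outside the bone marrow. Heme itself is made in hepatocytes too, by the housekeeping enzyme Alas1 and the shared later enzymes of the pathway. In a bulk sample, more cells of a type and more RNA per cell cannot be told apart.

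All samples were livers of male mice labelled as 12 months of age, of the strain C57BL/6N per the study's methods. The study itself counts 12 months from the injection of young adult mice, so the label may not be an age from birth, and it gives the length of the high fat diet in more than 1 way. AAV-V mice carried an adeno-associated virus with an empty vector and ate a normal diet, AAV-GP73 mice carried the virus encoding mouse GP73, a Golgi protein, on the same diet, and AAV-V HFD mice carried the empty vector and ate a high fat diet. The virus was hepatocyte specific per the study, so other liver cells and blood cells were not its target, and every group received a virus. Each group had 3 arrays. The labels do not say if mice were pooled, so that p-values measure only the spread between these samples.

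Golm1, which encodes GP73, had 1 probe, beginning at base 3524 of the transcript, and it was well above background on 0 of 9 arrays. Which part of the transcript the virus carried is not given in the sources used here, so that this probe, in the 3′ part of the transcript, does not check the labels. The AAV-V and AAV-GP73 arrays shared slide 1 and 1 scan, in different columns of the slide, so the effect of GP73 cannot be told apart from that of the column. Slide 2 carried the AAV-V HFD arrays, and the effect of diet therefore cannot be told apart from that of the slide. The AAV-V arrays were the dimmest: between 6.67% and 7.21% of probes were well above background, against 10.2% to 13.2% with the high fat diet and 12.5% to 14.9% with AAV-GP73. All 10 hepatocyte markers examined, such as Alb, Apoa1 and Ttr, were well above background on all 9 arrays.

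The probes are shown first because they decide which globin genes the arrays could tell apart. Each is 60 bases long. The probes at the end of the transcript are shown as 30 bases, with the polyadenylation signal in capitals, and the probes inside the coding part are shown whole. All sequences run 5′ to 3′.
Hba-a1, probe A_51_P169730, bases 27 to 56: tcttggtctttgAATAAAgcctgagtagga
Hba-a2, probe A_55_P1962299, bases 26 to 55: tcttggtctttgAATAAAgcctgagtagga
Hba-a1, probe A_55_P1962303, whole: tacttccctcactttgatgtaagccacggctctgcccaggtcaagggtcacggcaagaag
Hbb-b2, probe A_55_P2038540, whole: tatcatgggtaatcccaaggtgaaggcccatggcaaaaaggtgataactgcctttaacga

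The end probes of Hba-a1 and Hba-a2 shared a run of 59 of 60 bases, being the same stretch shifted by 1 base. The files list transcripts of both Hba-a1 and Hba-a2 for each of the 3 alpha globin probes, so that no probe measured either gene alone. The Hba-a1 probes lie at chr11:32184427-32184486 and chr11:32183955-32184014, and the Hba-a2 probe at chr11:32197245-32197304, all on the plus strand of mm9. The Hbb-b2 probe has no position in mm9 per the files, and the transcripts listed for it are those of Hbb-b2 and Hbb-b1, alleles of a beta globin haplotype other than the Hbb-bs and Hbb-bt haplotype of the C57BL/6 reference. The Hbb-bt probe, at chr7:110961105-110961164 on the minus strand of mm9, lists transcripts of 1 gene, Hbb-bt. The Alas2 probe, at chrX:147004993-147005052 on the plus strand of mm9, lists transcripts of Alas2 alone. Apart from the pair of end probes, no 2 member probes shared a run of more than 7 bases.

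The start regions of the genes are shown because members of both globin families moved together across the arrays. RefSeq gave a start region in GRCm38.p6 for 4 of the 5 genes. Hbb-b2 was the other. The 250 bases before each start were searched on both strands for the GATA factor motif (AGATAA or AGATAG or TGATAA or TGATAG), for CACCC, for CCAAT and for TATAA, and matches are in capitals, where touching matches run together.
Hba-a1, chr11:32283422-32283671, plus strand: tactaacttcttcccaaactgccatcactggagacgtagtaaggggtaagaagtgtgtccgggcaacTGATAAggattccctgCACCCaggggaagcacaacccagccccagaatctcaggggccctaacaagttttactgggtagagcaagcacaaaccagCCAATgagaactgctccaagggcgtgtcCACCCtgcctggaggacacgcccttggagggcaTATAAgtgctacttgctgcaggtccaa
Hbb-bt, chr7:103813924-103814173, minus strand: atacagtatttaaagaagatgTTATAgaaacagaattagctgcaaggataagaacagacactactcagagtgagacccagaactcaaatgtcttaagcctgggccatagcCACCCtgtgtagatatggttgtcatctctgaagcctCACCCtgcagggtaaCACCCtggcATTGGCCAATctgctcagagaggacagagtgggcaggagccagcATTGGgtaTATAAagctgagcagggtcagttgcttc
Alas2, chrX:150547167-150547416, plus strand: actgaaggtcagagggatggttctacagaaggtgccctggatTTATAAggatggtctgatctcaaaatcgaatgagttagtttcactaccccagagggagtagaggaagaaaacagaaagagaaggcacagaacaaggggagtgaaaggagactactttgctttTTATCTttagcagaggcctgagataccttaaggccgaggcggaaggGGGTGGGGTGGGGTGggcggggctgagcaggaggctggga

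The window of Hba-a2 (chr11:32296242-32296491, plus strand) shared a run of 247 of 250 bases with that of Hba-a1, shifted by 3 bases, and is not printed. Hba-a1 held 1 GATA motif, 2 CACCC, 1 CCAAT and 1 TATAA, the last between bases -27 and -23 from the start. Hbb-bt held 0 GATA motifs, 3 CACCC, 3 CCAAT and 2 TATAA, with 1 TATAA between bases -28 and -24. Alas2 held 1 GATA motif, at bases -86 to -81 and read on the opposite strand, 3 CACCC on the opposite strand, 0 CCAAT and 2 TATAA that overlap each other. Of all 32851 start regions of that length, 26.5% held a GATA motif, 52% CACCC, 33.8% CCAAT and 22.8% TATAA. These are matches of letters in a window, and no binding was measured.

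Alpha globin was read by 3 probes, all above background everywhere, and all of them were higher with AAV-GP73. Values are Feature Extraction signals after each array was shifted to a common 75th percentile of the 2667 probes well above background on all 9 arrays, called scaled signal here. The Hba-a1 end probe read 186, 166 and 457 on AAV-V arrays 1, 2 and 3. It read 8334, 1641 and 3107 on AAV-GP73 arrays 1, 2 and 3. It read 286, 370 and 542 on AAV-V HFD arrays 1, 2 and 3. All 3 AAV-GP73 arrays lay above all 6 others, AAV-GP73 array 1 far above its own group, and the AAV-V and AAV-V HFD arrays overlapped.

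The Hba-a2 probe, nearly the same sequence, read 186, 165 and 436 on the AAV-V arrays. Its AAV-GP73 values were 8166, 1632 and 3022, and its AAV-V HFD values 285, 367 and 521. The Hba-a1 probe inside the coding part, which shares no run over 6 bases with the end probes, read 38.8, 30.5 and 94.9 in AAV-V. It read 885, 191 and 304 in AAV-GP73 and 70.7, 77.7 and 71.0 in AAV-V HFD. The AAV-GP73 arrays were again above all others, in the same order within their group. All 10 spots of each alpha globin probe were well above background on all 9 arrays, and the SD between the spots of an array was between 0.03 and 0.31 on the log2 scale. The SD between arrays of a group was larger for the end probe of Hba-a1, at 1.18 for AAV-GP73, 0.80 for AAV-V and 0.46 for AAV-V HFD (log2, n = 3 each).

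**Figure D1:**
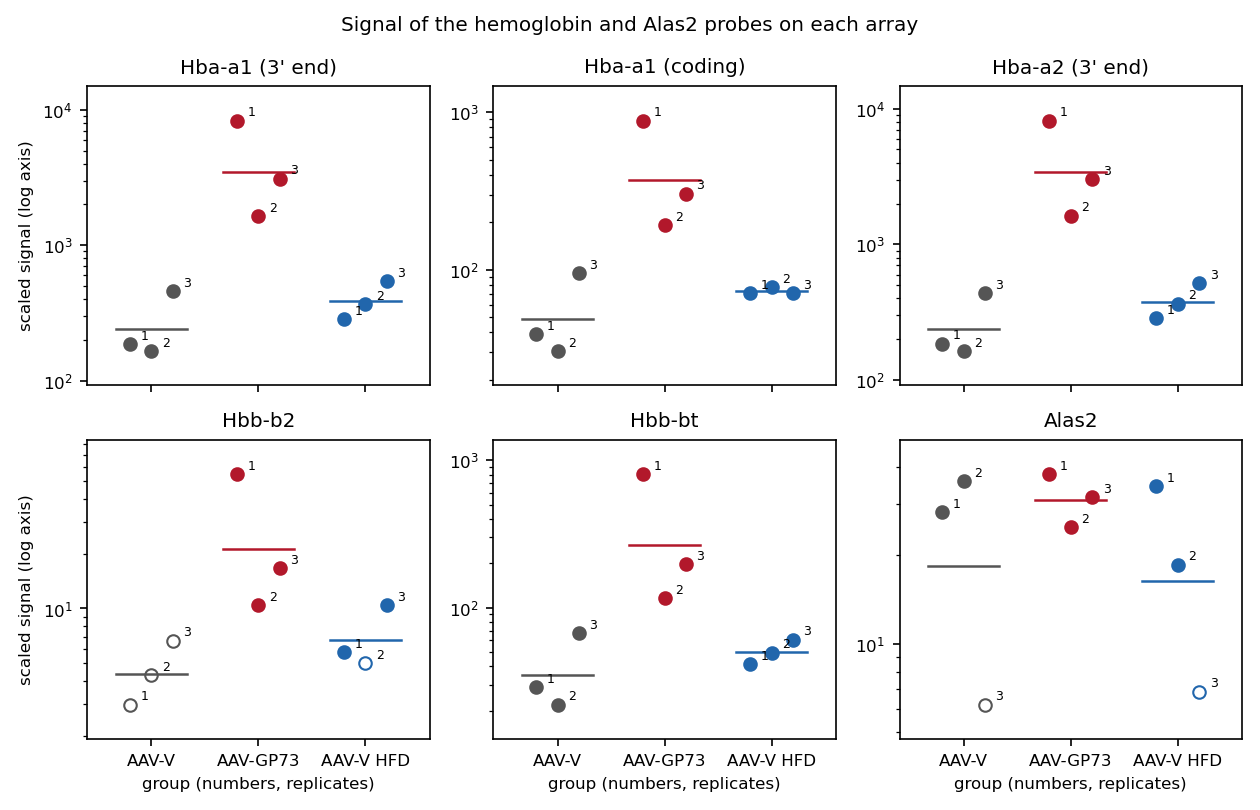
Scaled signal (vertical log axis, arbitrary units) of the 6 probes of Hba-a1, Hba-a2, Hbb-b2, Hbb-bt and Alas2 on each of the 9 arrays, by group on the horizontal axis; points are arrays with their replicate number, open points were not well above background, and lines are means of the log2 values. The Hba-a1 end probe spans 1641 to 8334 in the AAV-GP73 group and 166 to 542 over the 6 other arrays, while Alas2 overlaps between all groups.

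The beta globins had the same order of arrays within AAV-GP73. Hbb-bt, on 1 spot per array, read 28.9, 22.02 and 67.2 in AAV-V. It read 803, 116 and 199 in AAV-GP73, and 41.4, 49.6 and 60.8 in AAV-V HFD. It was well above background on all 9 arrays, and the AAV-GP73 arrays lay above all 6 others. Hbb-b2, also on 1 spot, was well above background on 0 of 3 AAV-V arrays, where its measured values were 2.97, 4.29 and 6.66. It was above background on 3 of 3 AAV-GP73 arrays, at 54.5, 10.4 and 16.7, and on 2 of 3 AAV-V HFD arrays, at 5.76, 5.00 and 10.5, where array 2 was the one below. The lowest AAV-GP73 array for Hbb-b2, array 2, lay within the range of the AAV-V HFD arrays.

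Within AAV-GP73 all 5 globin probes put array 1 highest, array 3 next and array 2 lowest, over a range of 4.64-fold for the Hba-a1 coding probe to 6.93-fold for Hbb-bt. Within AAV-V the 4 globin probes above background put array 3 highest, over 2.65-fold for Hba-a2 to 3.11-fold for the Hba-a1 coding probe. Over the AAV-V HFD arrays the same 4 probes ranged from 1.10-fold for the Hba-a1 coding probe to 1.89-fold for the Hba-a1 end probe. Hbb-b2 was not measured in AAV-V and is left out of these ranges.

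Alas2 did not share this order. On the AAV-V arrays it read 28.0, 35.8 and 6.198. The AAV-GP73 values were 37.7, 24.9 and 31.6, and the AAV-V HFD values 34.5, 18.6 and 6.87. The values of 6.198 and 6.87, on AAV-V array 3 and AAV-V HFD array 3, were not well above background, and the other 7 arrays were. AAV-V array 3 thus had the highest globin signals of its group and the lowest Alas2 signal. Those were the 2 arrays at position 1 of their slides, a position that no AAV-GP73 array held; the part of the position in the result was not tested.

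Compared with AAV-V, the AAV-GP73 means were higher by 3.85 ± 0.55 (log2 difference ± SE, n = 3 against 3) for the Hba-a1 end probe, 14.4-fold. The difference was 3.85 ± 0.54 for Hba-a2, 2.95 ± 0.53 for the Hba-a1 coding probe and 2.92 ± 0.61 for Hbb-bt. For Hbb-b2, with AAV-V below background, the mean was at least 1.46-fold higher, where the group means measured were 2.14 and 4.40 on the log2 scale. This bound sets each AAV-V array to the higher of its own value and the dimmest signal that still counted as well above background there, which was 13.6 to 15.4. Where a p-value stands beside such a bound below, it belongs to the fitted difference, and the bound itself was not tested. For Alas2 the difference was 0.75 ± 0.66, with overlapping arrays. Past a fold of 2 and an adjusted p under 0.05 in the fit over all probes lay 5 of the 6 probes, where 33.9% of the 6591 probes tested were called higher and 17.9% lower. The AAV-GP73 arrays lay wholly above the AAV-V arrays for 5 of 6 probes, and for 45.7% of all probes tested. Since this contrast chose the genes, nothing is read from those counts. All 6 probes passed the filter for testing, which asked for 1 group or more with a signal well above background on its 3 arrays, and Hbb-b2 and Alas2 passed it through AAV-GP73 alone.

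As scaled here, more of the probes tested were higher than lower with AAV-GP73, although 17.9% were called lower. The median over all 6591 probes was 0.64 in this comparison, and relative to it the Hba-a1 end probe was higher by 3.21, the coding probe by 2.31, Hba-a2 by 3.22, Hbb-bt by 2.28, Hbb-b2 by 1.63 as fitted and Alas2 by 0.12. Scaling by the 75th percentile of all probes moved the median to 1.63 and scaling by spike-in spots to 2.32, which left these relative values as they were by construction. Quantile normalization put the median at 0.78 and the Hba-a1 end probe 3.16 above it, and in the log2 table deposited by the authors these were 0.79 and 3.02. The share of called probes that were higher was 65.4% here, 91.3% with all-probe scaling, 98.2% with spike-in scaling and 41.6% with normexp background correction and an offset of 50.

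Without AAV-GP73 array 1 the difference from AAV-V was 3.22 for the Hba-a1 end probe, 2.32 for the coding probe and 2.12 for Hbb-bt. These folds were over 1.5 times smaller than with the array, and of the same sign. The fitted value of Hbb-b2 was then 1.59 in place of 2.27, neither being a measured fold, since AAV-V was below background. Without AAV-GP73 array 2 the Hbb-bt difference was 3.51 and that of the Hba-a1 end probe 4.39.

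**Figure D2:**
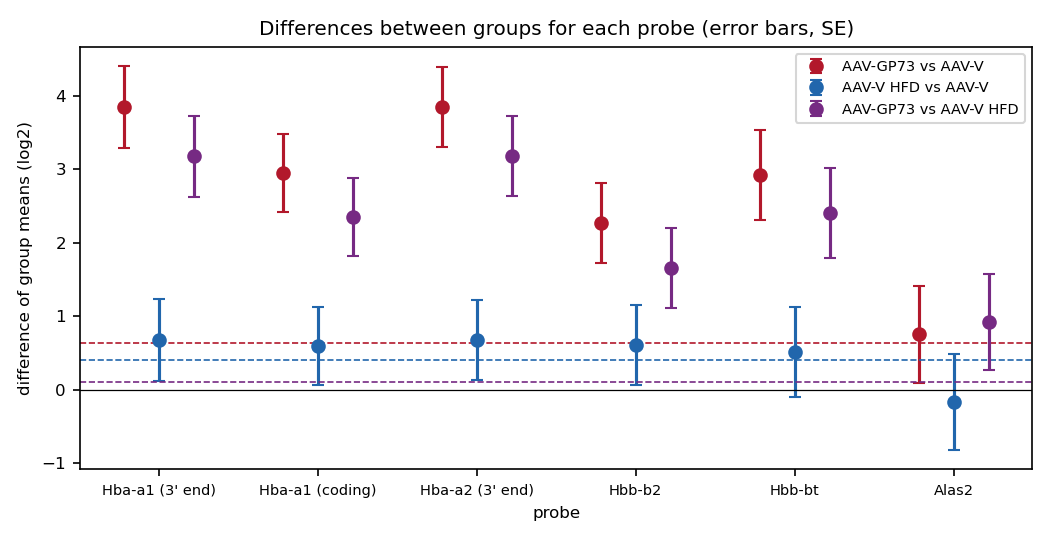
Difference of group means (vertical axis, log2) for each of the 6 probes (horizontal axis) in the 3 comparisons; points are differences in the fit, error bars are SE, and dashed lines in the same colours are the medians over all 6591 probes tested. The 5 globin probes, of which Hbb-b2 is a fitted value against AAV-V arrays below background, lie between 2.27 and 3.85 for AAV-GP73 against AAV-V and between 0.52 and 0.68 for AAV-V HFD against AAV-V, while Alas2 lies at 0.75 and -0.17 in those comparisons.

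In AAV-V HFD against AAV-V, which shares the AAV-V arrays with the contrast that chose the genes, 0 of 6 probes were called by limma, with 25.0% of the probes tested called higher and 16.9% lower. The unadjusted p of limma was also above 0.05 for all 6. The Hba-a1 end probe differed by 0.67 ± 0.55 with a 95% interval of -0.53 to 1.88 (adjusted p = 0.320, limma). Hba-a2 differed by 0.68, Hbb-bt by 0.52 and the Hba-a1 coding probe by 0.60, and Alas2 by -0.17 with an interval of -1.60 to 1.26. The arrays overlapped for all 6 probes, where 34.6% of probes tested lay wholly higher and 21.6% wholly lower. The median over all probes was 0.41, so that relative to it the alpha globin probes lay at 0.19 to 0.27 and Alas2 lay at -0.57. With all-probe scaling all 5 globin probes were called, the Hba-a1 end probe at 1.63 (adjusted p = 0.0158), and with spike-in scaling too, at 2.01 (adjusted p = 0.00389), while the position relative to the median stayed at 0.27 by construction. Relative to the median the direction depended on the method: with quantile normalization the end probe lay at 0.079, the coding probe at -0.20 and Hbb-bt at -0.23, and in the authors' log2 table at -0.016, -0.32 and -0.29. The share of called probes that were higher was 59.6%, and 95.2% with all-probe scaling, 98.2% with spike-in scaling, 71.5% with quantile normalization and 44.6% with normexp.

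AAV-GP73 against AAV-V HFD used no AAV-V array and compared arrays of similar brightness, but shares the AAV-GP73 arrays with the contrast that chose the genes. That choice favoured high values here, so the calls, the rank and the p-values below are a description and no independent support. These groups also differed in virus, diet, slide, column of the slide and scan, and the parts of these cannot be told apart. By limma 3 of 6 probes were called higher and 0 lower, all alpha globin, where 2.08% of probes tested were called higher and 0.592% lower. Those 3 probes list the same genes, Hba-a1 and Hba-a2, and are not 3 separate results. The Hba-a1 end probe was higher by 3.18 ± 0.55 (9.04-fold, 95% interval 3.92 to 20.9, adjusted p = 0.0118, limma) and ranked 5 from the top of 6591. Hba-a2 was higher by 3.18 ± 0.54 (adjusted p = 0.0107, limma), and the Hba-a1 coding probe by 2.35 ± 0.53 (adjusted p = 0.0392, limma). Hbb-bt differed by 2.40 ± 0.61 (adjusted p = 0.0623, limma), short of the threshold although its arrays did not overlap, which was so for 15.7% of probes in this direction and 8.30% in the other. Hbb-b2 differed by 1.66 ± 0.55 (adjusted p = 0.143, limma) and Alas2 by 0.92 ± 0.66 (adjusted p = 0.534, limma), with overlapping arrays. The median over all probes was 0.10, and 77.8% of called probes were higher, or 94.7% with spike-in scaling. With 3 arrays per group the smallest p of an exact two-sided permutation test would be 0.1, so none was run on single probes.

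Without AAV-GP73 array 1 the Hba-a1 end probe differed from AAV-V HFD by 2.55 (adjusted p = 0.0386, limma) and Hba-a2 by 2.55 (adjusted p = 0.0349, limma). The coding probe then differed by 1.72 (adjusted p = 0.0921, limma). Its call was also lost when AAV-GP73 array 3 (adjusted p = 0.120, limma) or any 1 of the 3 AAV-V HFD arrays (adjusted p = 0.0747 to 0.1001, limma) was left out. Hbb-bt was called without AAV-GP73 array 2, at 3.00 (adjusted p = 0.0483, limma), and differed by 1.60 without AAV-GP73 array 1, 3.03-fold in place of 5.29-fold (adjusted p = 0.121, limma).

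**Figure D3:**
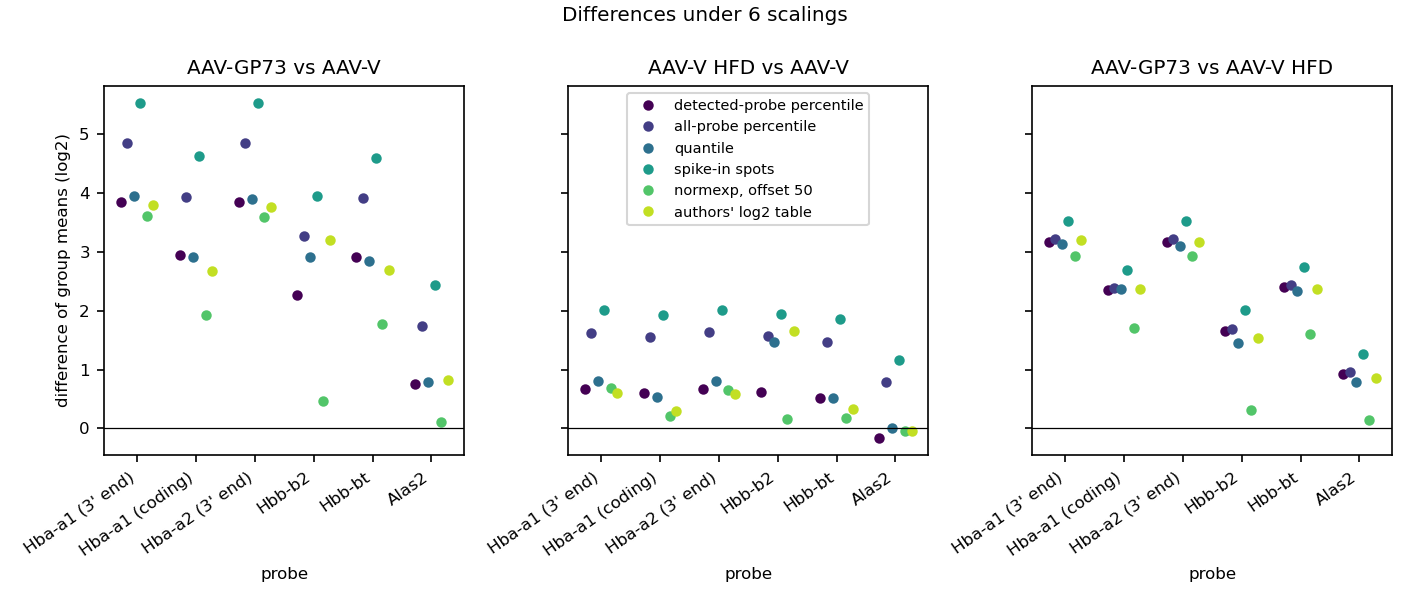
Difference of group means (vertical axis, log2) of the 6 probes (horizontal axis) in the 3 comparisons (panels), under 6 ways of scaling and background correction (colours). For AAV-V HFD against AAV-V the Hba-a1 end probe moves from 0.67 to 2.01 with the scaling, whereas for AAV-GP73 against AAV-V HFD it stays between 2.93 and 3.52.

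For the 4 globin probes above background on all 9 arrays AAV-GP73 had the highest mean, then AAV-V HFD, then AAV-V. For Hbb-b2 AAV-GP73 was highest, and the other groups have no measured order. For the Hba-a1 end probe the means on the log2 scale were 11.8 ± 1.18, 8.59 ± 0.46 and 7.92 ± 0.80 (SD, n = 3 each). The lower pair of groups did not differ beyond the spread. For Alas2 the means were 4.95 ± 0.30 in AAV-GP73, 4.2 ± 1.37 in AAV-V and 4.03 ± 1.18 in AAV-V HFD, and no neighbours in that order differed beyond the spread.

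Other globin genes and the alpha globin chaperone were scarcely measured. Of the 8 on the array, 0 passed the filter for testing. Hbb-b1, whose probe also lists a transcript of Hbb-bs, the major beta globin of the C57BL/6 haplotype, was well above background on AAV-GP73 arrays 1 and 3 alone, at 34.5 and 12.2, and measured 6.53 on array 2. Ahsp, which encodes the protein that stabilises free alpha globin, was above background on AAV-GP73 array 1 alone, at 11.6. Hbb-y, an embryonic beta-like globin, was above background on AAV-V array 3 alone, at 22.4.

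Genes of the red cell membrane and of red cell enzymes split. Of 24 on the array 6 passed the filter. In AAV-GP73 against AAV-V 1 rose and 2 fell, with a median of -0.55 beside 0.64 over all probes. Of all probes tested, 33.9% were called higher and 17.9% lower. Epb4.1, the membrane skeleton protein 4.1, was at least 5.36-fold higher (adjusted p = 4.24e-05, limma), at 111, 62.5 and 68.0 against AAV-V arrays below background. Ermap, an erythroid membrane protein, was lower by -1.91 ± 0.29 and Rhd, of the Rh blood group, by -1.66 ± 0.27 (adjusted p = 0.000277 and 0.000417, limma), with no overlap of the arrays. With all-probe scaling, spike-in scaling or normexp neither of those was called lower. The rest of the tested genes, Hemgn, Dmtn and Tspan33, differed by -0.51, -0.58 and 0.78 and were not called. A further Epb4.1 probe was above background on AAV-GP73 array 2 alone, at 32.0, so that the probes of that gene disagreed. In AAV-V HFD against AAV-V 1 rose and 2 fell too, and in AAV-GP73 against AAV-V HFD 0 of 6 were called.

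The genes of that list below the filter were in several cases seen on 1 array. Slc4a1, the anion exchanger band 3 of the red cell membrane, was well above background on AAV-GP73 array 1 alone, at 17.5. Car2, a red cell carbonic anhydrase, and Gypc, a glycophorin, were above background there alone as well, at 8.48 and 6.94. Car1, another carbonic anhydrase, was above background on AAV-V array 3 and AAV-V HFD array 1, at 19.5 and 5.34. From the list of erythroid factors and receptors, Slc25a37, the mitochondrial iron importer of erythroid cells, was above background by its brightest probe on AAV-GP73 array 1 alone, at 11.8, and by another probe on array 3 alone, at 7.95. Levels such as those of Car2, Gypc and Slc25a37 would not have been seen on the AAV-V arrays. The same holds for that of Car1 on AAV-V HFD array 1. The levels of Slc4a1 on AAV-GP73 array 1 and of Car1 on AAV-V array 3 exceeded the lowest signal well above background on every array. The lowest signal well above background was 3.61 to 5.62 for AAV-GP73, 4.11 to 7.01 for AAV-V HFD and 13.6 to 15.4 for AAV-V.

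Erythroid transcription factors and receptors were near the limit of detection. Of 14 on the array 2 passed the filter. Zfpm1, a cofactor of GATA factors, was at least 1.51-fold higher in AAV-GP73 than in AAV-V (adjusted p = 0.000264, limma). It passed the filter only through AAV-GP73 and AAV-V HFD, being below background on every AAV-V array. In AAV-V HFD against AAV-V it was called too (adjusted p = 0.0130, limma), but no fold can be given. Its AAV-V HFD levels, 8.57 to 10.9, could not have been seen on the AAV-V arrays, so that call is no support for a rise. Tfrc, the transferrin receptor, was well above background on 3 AAV-GP73 arrays and 1 AAV-V HFD array and was not called. Tal1 and Lmo2, partners in an erythroid transcription factor complex, were above background on AAV-GP73 array 3 alone, at 5.21 and 4.13. That array had the lowest limit of detection of all, 3.61, and such levels would not have been seen on the AAV-V arrays. On AAV-V HFD array 1 Lmo2 measured 4.24 without being well above background. The master regulators Gata1 and Klf1 and the erythropoietin receptor Epor were well above background on 0 of 9 arrays.

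**Figure D4:**
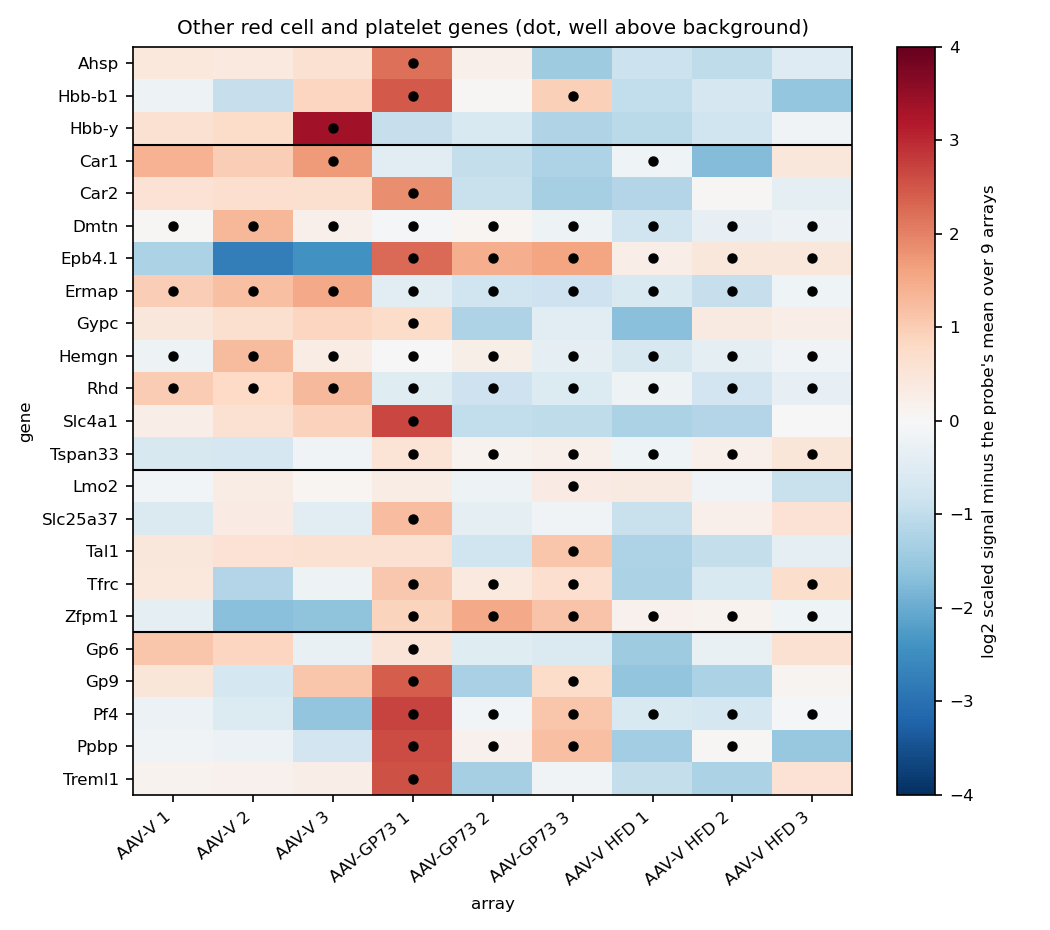
Log2 scaled signal minus the mean of that probe over the 9 arrays (colour) for the brightest probe of genes well above background on at least 1 array, with genes in rows (globins, red cell membrane and enzymes, erythroid factors and platelet markers, divided by lines) and arrays in columns; dots mark signals well above background, and squares without a dot are not measured levels. Ahsp, Car2, Gypc, Slc4a1, Slc25a37, Gp6 and Treml1 have their only dot on AAV-GP73 array 1.

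Markers of other blood cells moved in part with the globins. Of the 10 platelet markers 2 passed the filter, and both were called higher in AAV-GP73 against AAV-V. Beside this and the other marker lists in that comparison, 33.9% of all probes tested were called higher and 17.9% lower. Pf4, a platelet chemokine, was not above background in AAV-V and read 75.2, 10.71 and 25.0 on AAV-GP73 arrays 1, 2 and 3, at least 1.88-fold higher (adjusted p = 0.0108, limma). Ppbp, another platelet chemokine, read 40.3, 7.36 and 15.0 there, at least 1.13-fold higher (adjusted p = 0.0211, limma), and passed the filter through AAV-GP73 alone. These p-values belong to fitted differences of 2.03 for Pf4 and 1.71 for Ppbp against AAV-V readings below background, and do not test the bounds. Both put the AAV-GP73 arrays in the order of the globins. Gp9 was above background on AAV-GP73 arrays 1 and 3, at 28.0 and 8.73, and Treml1 and Gp6 on array 1 alone. Platelet calls were 2 with all arrays, 1 without AAV-GP73 array 1 and 0 without AAV-V array 3, and in AAV-GP73 against AAV-V HFD 0 of 2 were called, or 1 without AAV-GP73 array 2, without AAV-V HFD array 2 or with spike-in scaling. With normexp 0 were called against AAV-V.

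Over the whole list of 10 platelet markers the summed scaled signal was 39.1 to 175 for AAV-GP73, 45.8 to 55.3 for AAV-V and 21.4 to 39.1 for AAV-V HFD, with 2 to 5, 0, and 1 to 2 markers above background. Of the 12 neutrophil markers 4 passed the filter, and 1, Elane, was called, lower in AAV-GP73 than in AAV-V by -1.61; it was not called lower with all-probe scaling, spike-in scaling or normexp. S100a9, a neutrophil calcium-binding protein, was highest on AAV-GP73 array 1 at 105 and on AAV-V array 1 at 81.5, and Csf3r and S100a8 were not called. The neutrophil list summed to 70.9 to 196 for AAV-GP73, 96.5 to 185 for AAV-V and 64.6 to 110 for AAV-V HFD. In that order 3 to 4, 1 to 3 and 4 to 5 of its markers were above background. Lymphocyte markers held 2 tested genes, of which Cd4 was called, lower in AAV-GP73 by -2.38 though not with spike-in scaling, and Ms4a1 was not. The sums over the 10 lymphocyte markers were 432 to 825 for AAV-GP73, 1815 to 3538 for AAV-V and 868 to 1452 for AAV-V HFD. Cd4 alone read 1679, 2564 and 3441 on the AAV-V arrays and made up most of the sum on every array. At most 3 of the lymphocyte markers were above background on any array, so the sums do not describe the list. What part blood in the tissue had in the globin values was not tested.

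Markers of resident liver cells gave less. Among Kupffer cell markers 5 of 10 were tested and Clec4f was called higher, at least 1.01-fold. The brightest of those tested, Cd5l, Marco and Csf1r, were not called. They were above background on 3, 1 and 0 of the 3 AAV-V arrays, so for Marco and Csf1r the missing call does not show an equal level. Of 9 sinusoidal endothelial markers 1 was tested, Clec4g, and it was at least 1.5-fold higher in AAV-GP73 than in AAV-V (adjusted p = 0.00170, limma), having passed the filter through AAV-GP73 alone. Kupffer sums were 117 to 176 for AAV-GP73, 115 to 138 for AAV-V and 133 to 230 for AAV-V HFD, with 5 to 6, 1 to 2 and 5 to 7 markers above background. Endothelial sums were 33.9 to 48.6, 38.7 to 46.5 and 17.8 to 58.1, with 1 to 3, 0 to 1 and 0 to 3 markers above background. Most endothelial markers in these sums were thus below background, and the sums are no measured levels. Among 10 hepatocyte markers Cyp2e1 was called higher in AAV-GP73, by 1.66, and the brightest, Serpina1a, Alb, Apoa2 and Apoa1, were not called; the sums were 19567 to 27869 for AAV-GP73, 19244 to 27907 for AAV-V and 12094 to 20596 for AAV-V HFD.

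Of 14 heme synthesis genes other than Alas2 10 were tested. In AAV-GP73 against AAV-V 8 rose and 1 fell, where 33.9% of all probes were called higher, with a median of 1.95 beside 0.64 over all probes. Several of the 10 passed the filter only through groups other than AAV-V, so that the count is no support for a change of the list. Alas1, the housekeeping synthase, was higher by 2.77 ± 0.43 (adjusted p = 0.000290, limma), at 129, 231 and 144 against 17.1, 15.4 and 51.4, where 2 of 3 AAV-V arrays were above background. Its dimmer probe A_52_P129756 read 9.04, 17.6 and 9.76 in AAV-GP73, and A_66_P109200 read 12.5, 13.6 and 9.22. Both were below background on every AAV-V array and give no fold. The AAV-V readings of A_66_P109200, 8.97, 15.8 and 11.8, overlapped those of AAV-GP73, so that this probe showed no rise. Urod, uroporphyrinogen decarboxylase, was higher by 2.78 ± 0.53, with 1 of 3 AAV-V arrays above background, and Alad, the enzyme after the synthase, by 1.37 ± 0.38, with 2 of 3 above. Slc25a39, a mitochondrial carrier, was higher by 1.14 ± 0.36.

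Fech, ferrochelatase, which inserts iron into protoporphyrin to make heme, was at least 2.05-fold higher, Cpox at least 1.10-fold and Clpx, a mitochondrial unfoldase that acts on the synthase, at least 2.63-fold, all 3 being below background on every AAV-V array. Ppox, protoporphyrinogen oxidase, was lower by -2.86 ± 0.33, and Tmem14c was not called at 0.62 ± 0.33. In AAV-V HFD against AAV-V 7 rose and 1 fell, Alas1 by 3.32 ± 0.43, with a median of 1.56 beside 0.41 and with 25.0% of all probes called higher. In AAV-GP73 against AAV-V HFD 1 of 10 was called: Clpx, below background on the AAV-V HFD arrays, was at least 6.90-fold higher (adjusted p = 0.00130, limma), and it passed the filter through AAV-GP73 alone, the group where it was high. With normexp background correction 1 rose and 1 fell in each of the first 2 comparisons and 0 were called in the last.

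**Figure D5:**
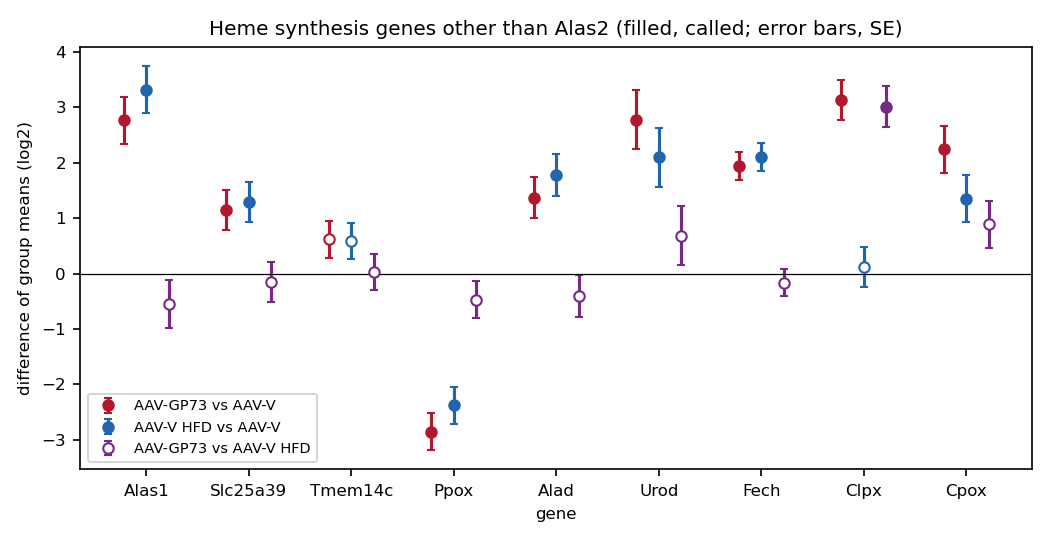
Difference of group means (vertical axis, log2) with SE for 9 of the 10 heme synthesis genes tested (horizontal axis) in the 3 comparisons (colours), filled where called; differences of genes below background in 1 group are fitted values and no bounds. Alas1 lies at 2.77 and 3.32 in the comparisons with AAV-V and Clpx alone is called between AAV-GP73 and AAV-V HFD.

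Genes that bind hemoglobin, heme or iron were tested in 15 of 22 cases. In AAV-GP73 against AAV-V 6 rose and 0 fell, with a median of 0.92 beside 0.64 over all probes. In AAV-V HFD against AAV-V 5 rose and 0 fell, with a median of 0.73 beside 0.41. These counts were near the 33.9% and 25.0% of all probes called higher. Hp, haptoglobin, which binds free hemoglobin in plasma, was higher by 1.64 ± 0.60 in AAV-GP73 and by 1.68 ± 0.60 in AAV-V HFD (adjusted p = 0.0336 and 0.0342, limma). The ferritin chains Ftl1 and Fth1 and transferrin, Trf, were not called and differed by 0.04, -0.19 and 0.04 in AAV-GP73. In AAV-GP73 against AAV-V HFD 0 of 15 were called. The count for AAV-GP73 against AAV-V was 12 with all-probe scaling, 15 with spike-in scaling and 1 with normexp.

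Genes with a pattern like that of the globins were sought among probes measured everywhere. Over the 9 arrays the mean log2 signal of the 4 probes above background on all of them was set against 2424 genes. The highest Pearson r were those of Slc27a5, a synthetase that activates bile acids with coenzyme A, at 0.95, Dhx36 at 0.93, Psmd1 at 0.92, Psma4 at 0.92 and Ankrd11 at 0.90, with Spearman rho of 0.85 to 0.92. The arrays shared slides and group differences in brightness, and correlations of deviations from group means were 0.70, 0.56, 0.89, 0.51 and 0.41. Leaving out AAV-GP73 arrays 1 and 3, the farthest from the median, gave r of 0.81 to 0.97. Slc27a5 was higher by 1.54 in AAV-GP73 against AAV-V, a difference that its choice by likeness to the globins favours.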

How the data were processed

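Total RNA of 9 mouse liver samples, 3 per group by the labels, was measured on one-colour Agilent arrays. The deposited intensity values come from Feature Extraction, version 12.0.3.1 per the file headers and 10.7 per the submitters' processing notes, background-subtracted and not scaled between arrays. The log2 table deposited by the authors has 1 value per probe and array, an unstated normalization, column medians near 0.80 and 1 common maximum; it served as an alternative.

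Spots with outlier marks were left out, spots of a probe were averaged on the log2 scale, and arrays were shifted to a common 75th percentile of the 2667 probes well above background on all 9 arrays, because most probes had no signal above background on any array. A probe counted as above background if at least 0.5 of its spots did. Probes detected on the 3 arrays of any 1 group entered limma 3.58.1 (lmFit and eBayes, all 9 arrays) in R 4.3.3, with Benjamini-Hochberg adjustment over the 6591 probes, and called at a 2-fold change or more with adjusted p below 0.05. A gene of a list was represented by its brightest probe. The fit was tested on simulated data.

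The members and lists were chosen with earlier results of these data known. Named were all member probes, genes of the red cell, erythroid and heme lists above background, the 4 brightest detected genes of other lists, and the 5 genes most like the members; others were named after their values were seen. Single values of 2 list genes are not reported here, and the list counts include them. Arrays with the same replicate number had residual correlations of -0.11 to 0.17, with 2 of 9 over 0.1, so equal numbers were not taken to pair samples. The number of arrays limits the precision. Alternatives were other scalings, background correction, filters, fits, the methods' t-test and leaving out each array. Probe positions are those of mm9 and start regions those of GRCm38.p6.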

Additional observations from a re-analysis of the deposited data

How the results depend on the processing

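The counts of probes called in AAV-GP73 against AAV-V, AAV-V HFD against AAV-V and AAV-GP73 against AAV-V HFD were 3416, 2767 and 176. They were 5215, 4512 and 378 with spike-in scaling, 485, 276 and 11 with normexp (whose offset of 50 shrinks dim probes by construction), 47085, 45130 and 78 with no filter on dim probes, and 1250, 1086 and 71 for probes above background on all 9 arrays, where fewer were tested. In the last comparison they were 48 with quantile normalization, 27 in the authors' log2 table, 389 with the methods' t-test and 13 after adjustment, which gave 1695 for AAV-V HFD against AAV-V. Leaving out 1 array gave 3118 to 3612, 2414 to 3075 and 53 to 167. The cause was not tested where none is named. As replicate numbers were not pairs, the fit with the replicate block is given here alone: 3413, 2779 and 124 calls, and the Hba-a1 coding probe lost its call against AAV-V HFD (adjusted p = 0.0507, limma), the single member call it changed.

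The Alas2 difference, not called as scaled here, passed the threshold in AAV-GP73 against AAV-V with all-probe scaling (1.75) and spike-in scaling (2.44), where its position relative to the median stayed at 0.12 by construction. It changed sign in AAV-V HFD against AAV-V with all-probe scaling (0.79), spike-in scaling (1.17), without AAV-V array 1 (0.14), without AAV-V array 2 (0.32) and without AAV-V HFD array 3 (0.46), and in AAV-GP73 against AAV-V without AAV-V array 3 (-0.033). Leaving out 1 array gave Alas2 differences of -0.033 to 1.23 there, and of -0.95 to 0.46 in AAV-V HFD against AAV-V. The globin probes kept their sign under all settings run. In AAV-GP73 against AAV-V HFD, with normexp the Hba-a1 end probe gave 2.93 (adjusted p = 0.0521, limma) and the coding probe 1.71; the coding probe also lost its call with quantile normalization and the authors' table (adjusted p = 0.0990 and 0.148, limma). Among the member values under alternatives 171 kept their direction and side of the threshold, or moved by less than 1 SD. Of the rest, 15 moved by 1 SD or more, 6 changed sign, 14 gained a call and 10 lost one. What lay below 13.6 to 15.4 of scaled signal could not be seen on the AAV-V arrays.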
